A study of Mus musculus with 9 samples.

Results

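The genes described here are 36 genes of calcium release, calcium entry and calcium pumping, taken from 54532 genes in a table of RNA sequencing read counts of mouse submandibular salivary gland. They were taken from a list of gene symbols and cover 6 roles: the Gq arm upstream of calcium release, the IP3 receptors, store-operated and other entry, pumps and exchanger, calcium-binding proteins, and calcium-driven enzymes with 1 transcription factor. All glands came from wild-type (WT) mice given 10 Gy of radiation. They were collected 30, 60 or 90 days later, with 3 libraries at each time. RNA was bulk RNA from thick sections of whole gland, so every cell type of the gland contributed, and fewer cells of a type cannot be told apart from less RNA per cell. Non-irradiated glands were not analysed here, so the values compare irradiated glands with each other, and the effect of time cannot be told apart from that of ageing. The labels name 3 samples a group without saying whether each came from a separate animal. The p-values therefore measure only the spread between these samples, which may be technical.

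Salivary acinar cells secrete fluid when acetylcholine acts on muscarinic receptors. The receptors act through Gq proteins and phospholipase C beta, which makes inositol trisphosphate (IP3), and IP3 opens receptor channels in the endoplasmic reticulum to release stored calcium. Store depletion is sensed by Stim proteins, which open Orai channels in the plasma membrane, and the calcium is removed again by pumps: SERCA pumps into the endoplasmic reticulum, PMCA pumps out of the cell and SPCA pumps into the secretory pathway. Calmodulin carries the signal to kinases such as CaMKII and to the phosphatase calcineurin.

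All 36 genes had at least 1 count in every library, and 35 passed the filter on low counts. Trpc1, a cation channel linked to store-operated entry, did not pass: it had 2, 5 and 7 counts at 30 days, 5, 1 and 9 at 60 days, and 3, 13 and 12 at 90 days. In edgeR's quasi-likelihood test with Benjamini-Hochberg adjustment over all genes tested, 2 of 35 members were called higher at 60 than at 30 days and 0 were called lower. Across all 15224 genes tested, 1.56% were called in that comparison, 1.14% higher and 0.427% lower. Between 30 and 90 days 1 of 35 members was called higher and 0 lower, beside 3.57% of all genes. An unadjusted p under 0.05 was found for 7 of 35 members in either comparison, beside 12.4% of all genes at 60 days and 16.8% at 90 days. Between 60 and 90 days 0 members were called, beside 0.256% of all genes (0.092% higher and 0.164% lower), and 3 members had an unadjusted p under 0.05, beside 10.8%. DESeq2 called 1 member there and limma-voom 0. In the test of any difference among the 3 times, 2 of 35 members were called, beside 3.29% of all genes, and 8 had an unadjusted p under 0.05, beside 16.7%. Counted over all 4 tests, 2 of 35 members and 4.39% of all genes were called. The called members were Camk2d, a subunit of the calcium/calmodulin-dependent kinase CaMKII, and Calm2, which encodes calmodulin.

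The members as a whole lay near 0. Their median log2 fold change was -0.03 from 30 to 60 days, -0.04 from 60 to 90 days and -0.01 from 30 to 90 days, beside -0.00, 0.00 and 0.01 for all genes tested. Below 0 lay 21 of 35 from 30 to 60 days, 20 from 60 to 90 days and 18 from 30 to 90 days, beside 50.4%, 49.9% and 47.9% of all genes. The comparisons of 60 and 90 days with 30 days share the 30-day libraries and are not independent of each other. These values rest on TMM scaling. Plain library-size scaling moved the median of all genes to 0.24 from 30 to 90 days and to 0.17 from 60 to 90 days, and with it only 7 of 35 members lay below 0 from 30 to 90 days.

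**Figure D1:**
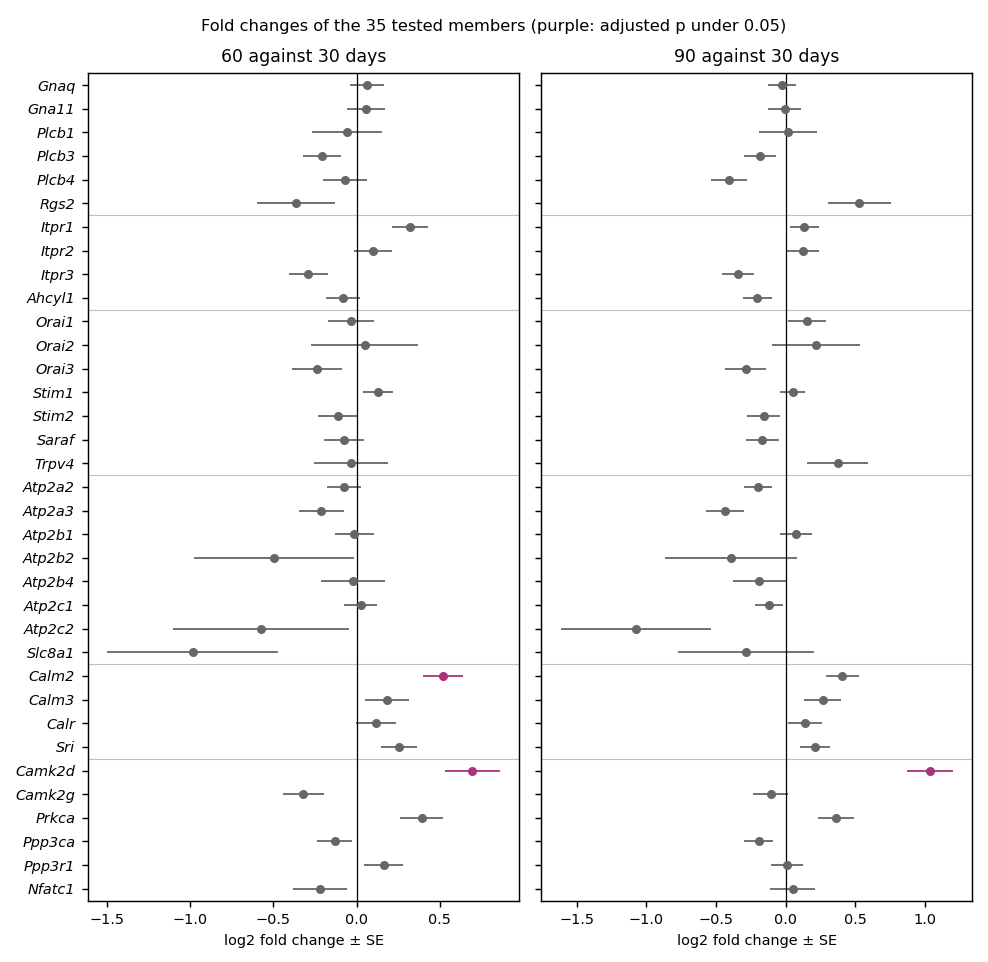
Log2 fold change with its standard error for the 35 members tested, 60 against 30 days and 90 against 30 days, grouped by role, with members at an adjusted p under 0.05 in purple. Camk2d is the highest point in both comparisons (0.69 and 1.04), Calm2 is the only other member called (0.52 at 60 days), and the lowest points, Slc8a1 and Atp2c2, have wide bars.

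Levels were compared between genes as CPM (counts scaled to a common TMM-adjusted library size) per kilobase of exon. The SERCA pump gene Atp2a3 stood at 392 CPM per kb on average over the 9 libraries, the highest of the 36. Calm2 followed at 192, Calr, a calcium-buffering chaperone of the endoplasmic reticulum, at 121, and Saraf, a negative regulator of store-operated entry, at 53.9. Atp2a2, the more widely expressed SERCA gene, stood at 42.5 and Plcb4, a phospholipase C beta, at 38.4. At the low end were Atp2b2 at 0.0921, the sodium-calcium exchanger Slc8a1 at 0.0387 and Trpc1 at 0.0365 CPM per kb. A level of 3 counts corresponded to 0.115 to 0.181 CPM without length correction, depending on the library.

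**Figure D2:**
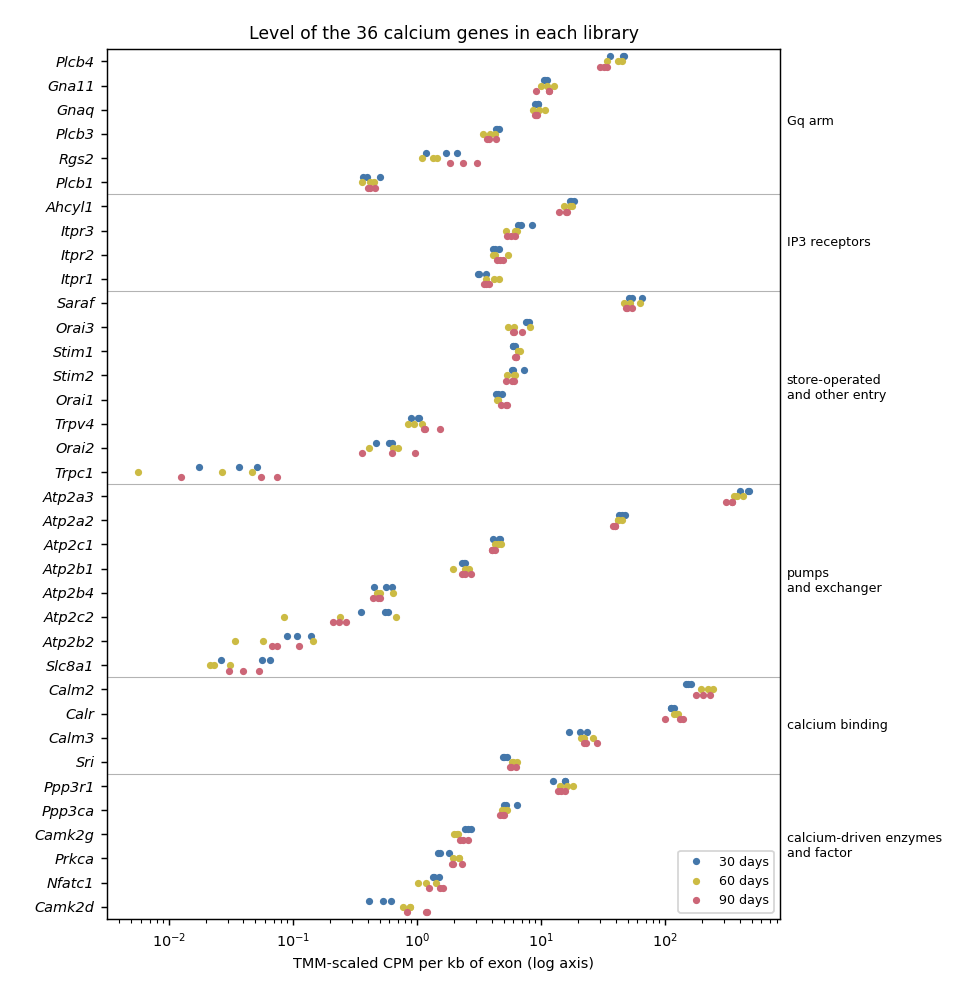
Level of each of the 36 genes in each of the 9 libraries, in CPM per kb of exon on a log axis, grouped by role and coloured by days after irradiation. Levels run from 0.0365 (Trpc1) to 392 (Atp2a3) on average, and for most genes the spread over libraries is small beside the distance between genes.

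The Gq arm held 6 members. Gnaq and Gna11 encode the widely expressed alpha subunits of Gq proteins. Gna11 had 43.6, 45.9 and 44.2 CPM at 30 days, 51.9, 41.4 and 45.8 at 60 days, and 47.7, 47.7 and 37.4 at 90 days. The 3 groups overlapped, with a 90-day log2 fold change over 30 days of -0.01 ± 0.12 (SE, n = 3 per group; edgeR adjusted p = 0.981). Gnaq ranged from 53.4 to 67.0 CPM with a log2 fold change of -0.03 ± 0.10 (adjusted p = 0.934). Per kilobase, Gna11 took 42.7% to 53.6% and Gnaq 36.6% to 44.6% of the summed level of the alpha subunits in a library. The log2 ratio of Gna11 to the sum of the other alpha subunit genes gave an exact permutation p of 0.600 (adjusted over 13 families 0.650).

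Another alpha subunit gene, Gna14, is not among the 36 and was measured as their family member. It had 15.4, 9.98 and 9.40 CPM at 30 days, 7.07, 7.18 and 6.54 at 60 days, and 5.86, 6.15 and 5.62 at 90 days. All 30-day libraries lay above all later ones, and 30-day replicate 1 was the highest. Gna14 fell by 0.97 ± 0.19 on the log2 scale from 30 to 90 days (edgeR adjusted p = 0.0062). Without that library the change was -0.72 (adjusted p = 0.0579), and with library-size scaling it was also -0.72 (adjusted p = 0.0717). Its share of the alpha subunits was 14.0% ± 3.5 (SD, n = 3) at 30 days, 8.6% ± 0.7 at 60 days and 7.6% ± 0.3 at 90 days.

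Plcb4 (chr2:135659011-136014593, plus strand, GRCm38) was the leading phospholipase C beta, with 86.6% to 91.6% of the summed level of Plcb1, Plcb3 and Plcb4 and their relatives. It had 416, 409 and 321 CPM at 30 days, 307, 376 and 408 at 60 days, and 291, 267 and 308 at 90 days. The 90-day libraries all lay below the 30-day ones, while the 60-day libraries spanned both. From 30 to 90 days its log2 fold change was -0.40 ± 0.13 and did not pass the test (edgeR adjusted p = 0.0958). The adjusted p was 0.0315 with DESeq2, and with library-size scaling the log2 fold change was -0.18 (adjusted p = 0.533). Without 30-day replicate 3, the lowest of its group, the adjusted p was 0.038, and without 60-day replicate 1 it was 0.05. Plcb3 (23.8 to 32.0 CPM) and Plcb1 (4.01 to 5.64 CPM) had log2 fold changes of -0.18 ± 0.11 and 0.01 ± 0.21 from 30 to 90 days.

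Rgs2 encodes a protein that speeds the switching off of Gq. It had 4.32, 7.602 and 6.21 CPM at 30 days, 4.87, 4.02 and 5.25 at 60 days, and 6.67, 11.1 and 8.53 at 90 days. All 90-day libraries lay above all 60-day libraries, while the 30-day libraries overlapped both. Its log2 fold change from 60 to 90 days was 0.89 ± 0.22 (edgeR unadjusted p = 0.000858, adjusted p = 0.122). It is the member that DESeq2 called in that comparison, with an adjusted p of 0.0295, and with no filter on low counts edgeR gave 0.00364.

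The 3 IP3 receptor genes all lay between 3.69 (Itpr1) and 6.32 (Itpr3) CPM per kb of exon on average. Itpr3 (chr17:27057304-27122223, plus strand) had 76.2, 58.6 and 62.2 CPM at 30 days, 55.5, 47.2 and 58.3 at 60 days, and 55.4, 51.6 and 48.2 at 90 days. All 6 later libraries were below all 30-day libraries, at 60 days by a small margin. The log2 fold change was -0.34 ± 0.12 from 30 to 90 days (edgeR adjusted p = 0.118) and did not pass the test. Itpr1 had 58.1, 57.2 and 66.5 CPM at 30 days, 66.7, 76.5 and 83.9 at 60 days, and 69.4, 65.9 and 64.3 at 90 days. Its 60-day libraries lay just above those of 30 days, with a log2 fold change of 0.32 ± 0.11 (adjusted p = 0.186). Itpr2 ranged from 60.4 to 80.7 CPM, with 0.12 ± 0.11 from 30 to 90 days (adjusted p = 0.653).

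Which IP3 receptor led depended on the length used. Per kilobase of all annotated exon, Itpr3 took 48.7% ± 4.4 (SD, n = 3) of the family at 30 days, 40.6% ± 3.2 at 60 days and 40.8% ± 1.1 at 90 days. The log2 ratio of Itpr3 to the other IP3 receptor genes was -0.07 ± 0.26, -0.55 ± 0.19 and -0.54 ± 0.06 (SD, n = 3) at the 3 times. An exact permutation test over the 280 ways to part 9 libraries into 3 groups of 3 gave p = 0.0357, and 0.0929 after adjustment over 13 families. Per kilobase of the longest annotated transcript, which is much shorter than the total exon length for Itpr1, Itpr1 was the highest in 6 of 9 libraries. Ahcyl1, a regulator that binds IP3 receptors, ranged from 94.3 to 124 CPM, with a log2 fold change of -0.20 ± 0.10 from 30 to 90 days (edgeR adjusted p = 0.327).

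Of the 8 members in store-operated and other entry, 7 were tested, 0 were called, and 0 had an unadjusted p under 0.05 in any comparison. Of all genes tested, 1.56% were called from 30 to 60 days, 0.256% from 60 to 90 and 3.57% from 30 to 90. An unadjusted p under 0.05 was found for 12.4%, 10.8% and 16.8% in the same order, so with 7 genes few or none would be awaited. Orai3, a pore subunit of Orai channels, had 17.1, 16.2 and 16.4 CPM at 30 days, 17.5, 13.1 and 11.7 at 60 days, and 12.9, 12.7 and 15.2 at 90 days. All 90-day libraries were below all 30-day libraries, and the log2 fold change was -0.29 ± 0.15 (edgeR adjusted p = 0.349). Orai1, the pore subunit best known for store-operated entry, ranged from 10.0 to 12.2 CPM (0.16 ± 0.14, adjusted p = 0.638). Orai2 ranged from 2.19 to 5.91 CPM. Per kilobase, Orai3 took 60.1% ± 1.9 (SD, n = 3) of the family at 30 days and 52.5% ± 4.0 at 90 days. Orai3 was the highest in 9 of 9 libraries by total exon length and in 7 of 9 by the longest transcript. The test of its ratio to the sum of Orai1 and Orai2 gave an exact permutation p of 0.129 (adjusted over 13 families 0.209).

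Stim1 and Stim2, the calcium sensors of the store, were compared per kilobase. Stim1 held 45.0% to 54.8% of the pair by total exon length, the higher in 8 of 9 libraries, and 65.2% to 73.5% by the longest transcript, the higher in 9 of 9. Stim1 had 62.0, 63.8 and 62.0 CPM at 30 days, 67.7, 67.6 and 70.2 at 60 days, and 64.8, 65.7 and 63.7 at 90 days. The 60-day libraries were all above the others, by a small amount: the 30-to-60-day log2 fold change was 0.13 ± 0.09 (edgeR adjusted p = 0.610). Stim2 ranged from 26.7 to 37.5 CPM (-0.16 ± 0.12 from 30 to 90 days) and Saraf from 137 to 189.8 CPM (-0.17 ± 0.12). Trpv4, a cation channel opened by osmotic and other stimuli, had 3.45 to 4.502 CPM at 30 and 60 days and 4.61 to 6.22 at 90 days (0.37 ± 0.22, adjusted p = 0.419).

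Atp2a3 (chr11:72961169-72993044, plus strand) dominated the SERCA pumps, with 88.9% to 91.2% of the family per kilobase in every library. Atp2a2 held 8.78% to 11.1%. Atp2a3 had 2535, 2486 and 2130.4 CPM at 30 days, 2019.7, 1894 and 2257 at 60 days, and 1837, 1627 and 1823 at 90 days. All 90-day libraries were below all 30-day and all 60-day libraries, and the means were 2384 ± 221, 2057 ± 184 and 1763 ± 117 (SD, n = 3). Between 30 and 90 days the log2 fold change was -0.44 ± 0.14, a level 1.35 times as high at 30 as at 90 days. The change had an unadjusted p of 0.00483 and an adjusted p of 0.0857 in edgeR's quasi-likelihood test. It did not pass there. It passed with DESeq2 (adjusted p = 0.00176), with limma-voom (0.0471), with no filter on low counts (0.0127) and with library totals that leave out the 10 most abundant genes (0.0399). With plain library-size scaling the log2 fold change was -0.21 (adjusted p = 0.456).

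Atp2a2 had 289, 276 and 261 CPM at 30 days, 254, 253 and 275 at 60 days, and 242, 233 and 243 at 90 days. Its 90-day libraries lay below all others, with a log2 fold change from 30 to 90 days of -0.20 ± 0.10 (edgeR adjusted p = 0.333). The log2 ratio of Atp2a3 to the other SERCA genes, which no scaling of libraries can move, was 3.31 ± 0.07 at 30 days, 3.18 ± 0.07 at 60 days and 3.08 ± 0.07 at 90 days (SD, n = 3). The exact permutation test gave p = 0.0214, and 0.0696 after adjustment over 13 families.

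The other pumps were lower. The leading PMCA gene was Atp2b1, with 75.6% to 83.1% of its family. It had 36.3, 34.9 and 37.0 CPM at 30 days, 29.6, 37.4 and 40.0 at 60 days, and 35.2, 37.5 and 41.3 at 90 days, and the 3 groups overlapped (0.07 ± 0.12 from 30 to 90 days, edgeR adjusted p = 0.827). The leading SPCA gene, Atp2c1, took 87.1% to 98.3% of its family. It had 45.4, 44.4 and 39.9 CPM at 30 days, 41.6, 46.3 and 43.9 at 60 days, and 39.1, 41.1 and 39.2 at 90 days. The 90-day libraries all lay just below the 60-day ones and overlapped those of 30 days (-0.12 ± 0.10 from 30 to 90 days, edgeR adjusted p = 0.610). In the longest protein-coding transcript of Atp2c1, 31.2% of 50-base windows also occur in another gene, Aste1, so Atp2c1 counts depend on how such reads were assigned.

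Atp2b4 ranged from 5.46 to 7.80 CPM, Atp2b2 from 0.431 to 1.83, Atp2c2 from 0.271 to 2.17 and Slc8a1 from 0.407 to 1.24 CPM. Atp2c2 had the lowest log2 fold change of the members from 30 to 90 days, -1.07 ± 0.54 (edgeR adjusted p = 0.328). Across the role, 7 of 8 genes lay below 0 from 30 to 90 days, with a median of -0.24, and 0 were called. Of all genes tested, 47.9% lay below 0 and 3.57% were called there. With library-size scaling 4 of 8 lay below 0, with a median of -0.03 beside 0.24 for all genes tested.

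Calm2 (chr17:87433412-87446935, minus strand, GRCm38) and Calm3 (chr7:16915379-16924114, minus strand), both among the 36, encode the same protein, calmodulin, from different coding sequences. Reads can be assigned to 1 of them only where their bases differ. The first 120 coding bases of each, from the GENCODE mouse release 21 transcripts, are shown because the Calm2 result rests on telling the copies apart. Capitals mark the 18 positions at which the bases of Calm2 and Calm3 differ, and all 18 are at the last base of a codon.
Calm2: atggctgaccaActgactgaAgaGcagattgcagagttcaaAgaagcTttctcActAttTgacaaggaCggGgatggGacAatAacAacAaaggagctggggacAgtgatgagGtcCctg
Calm3: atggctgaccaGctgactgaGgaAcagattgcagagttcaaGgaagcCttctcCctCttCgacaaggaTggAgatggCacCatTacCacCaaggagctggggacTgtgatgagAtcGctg

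Over 447 coding bases Calm2 was 82.6% identical to Calm3, with 78 positions that differ. No 50-base window of the longest protein-coding Calm2 transcript occurred in Calm3. Of its 1156 windows, 147 (12.7%) also occurred in the pseudogenes Gm7308, Gm15720 or Gm14480. Gm7308 had 4 to 12 counts per library, Gm15720 0 to 1 and Gm14480 0.

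Calm2 had 216, 236 and 223 CPM at 30 days, 325, 356 and 286 at 60 days, and 259, 299.9 and 336 at 90 days. Every 60-day and 90-day library lay above every 30-day library, and the later groups overlapped each other. The means were 225 ± 10.2, 322 ± 35.2 and 298 ± 38.8 CPM (SD, n = 3). Calm2 rose from 30 to 60 days by 0.52 ± 0.12 on the log2 scale (edgeR adjusted p = 0.0327). From 30 to 90 days the log2 fold change was 0.41 ± 0.12 and did not pass the test (adjusted p = 0.0655), though it passed with library-size scaling (0.62, 0.0141), with DESeq2 (0.0171) and without 60-day replicate 3 (0.0423) or 90-day replicate 1 (0.0375). The 60-day call was lost in 7 of 18 alternatives, in which the adjusted p reached 0.247 without 60-day replicate 2, the highest library, and was 0.0798 with library-size scaling. It was also lost without each 30-day replicate (0.142, 0.0963 and 0.101) and without 60-day replicate 1 (0.0561).

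Calm3 had 40.8, 50.4 and 56.8 CPM at 30 days, 63.4, 53.7 and 50.8 at 60 days, and 55.6, 69.0 and 53.5 at 90 days. Its 3 groups overlapped, and it was not called: the log2 fold change was 0.18 ± 0.13 at 60 days (edgeR adjusted p = 0.634) and 0.27 ± 0.13 at 90 days (adjusted p = 0.318), both against 30 days. Whether Calm2 and Calm3 differed in their change was not tested.

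The other calcium-binding members, Calr and Sri, lay above 0 as well. Calr ranged from 291 to 405 CPM (0.14 ± 0.12 from 30 to 60 days, edgeR adjusted p = 0.648). Sri encodes sorcin, a calcium-binding regulator of release channels and pumps. It had 24.6, 25.7 and 24.0 CPM at 30 days, 31.4, 29.0 and 28.2 at 60 days, and 27.6, 28.0 and 30.5 at 90 days. Its 6 later libraries were all above the 30-day libraries, with 0.25 ± 0.11 at 60 days (adjusted p = 0.320) and 0.21 ± 0.11 at 90 days (adjusted p = 0.322), neither past the test. All 4 calcium-binding genes had log2 fold changes above 0 at 60 and at 90 days against 30 days, with medians of 0.22 and 0.24. Of these 4, 1 was called at 60 days, beside 1.56% of all genes tested, and 0 at 90 days, beside 3.57%.

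Camk2d (chr3:126596302-126846326, plus strand) had the clearest change of the 36. It encodes the delta subunit of CaMKII, a kinase that calcium-bound calmodulin switches on. It had 9.28, 13.9 and 12.01 CPM at 30 days, 17.5, 19.7 and 19.9 at 60 days, and 18.6, 26.99 and 26.9 at 90 days. Every later library lay above every 30-day library, while 90-day replicate 1 lay within the 60-day range. The means were 11.7 ± 2.32, 19.0 ± 1.36 and 24.2 ± 4.80 CPM (SD, n = 3).

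Camk2d rose by 0.69 ± 0.16 on the log2 scale from 30 to 60 days (edgeR adjusted p = 0.0384) and by 1.04 ± 0.16 from 30 to 90 days (adjusted p = 0.00145), a 2.05-fold difference. Between 60 and 90 days the log2 fold change was 0.34 ± 0.16 (adjusted p = 0.448). The 90-day call held in all 18 alternatives, with log2 fold changes from 0.90 to 1.24 and adjusted p-values up to 0.0119. The 60-day call was lost in 9 of 18, among them library-size scaling (0.119), limma-voom (0.0822) and each fit without 30-day replicate 1 (0.194), 30-day replicate 3 (0.105) or 60-day replicate 2 (0.184). It was also lost without 60-day replicate 1 (0.0535), 60-day replicate 3 (0.071) or 90-day replicate 3 (0.0547). None of the 5475 50-base windows of its longest protein-coding transcript occurred in another gene. Annotated Camk2d exons outside that transcript were not checked.

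The gamma subunit gene, Camk2g, was the leading CaMKII gene per kilobase of all exon. It had 16.6, 17.6 and 15.6 CPM at 30 days, 12.7, 13.7 and 13.5 at 60 days, and 14.3, 16.7 and 15.1 at 90 days. The 60-day libraries were the lowest, below all others, with -0.32 ± 0.13 from 30 to 60 days (edgeR adjusted p = 0.282). From 30 to 90 days the value was -0.11 ± 0.12 (adjusted p = 0.742). Its share of the family was 80.2% ± 3.6 at 30 days, 67.6% ± 1.4 at 60 days and 65.3% ± 3.4 at 90 days, while that of Camk2d was 16.04% ± 2.3, 27.5% ± 0.5 and 28.9% ± 3.1 (SD, n = 3).

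The Camk2d share was 13.4% to 17.6% at 30 days and 25.4% to 31.3% in the 6 later libraries, with no overlap. The log2 ratio of Camk2g to the other CaMKII genes was 2.02 ± 0.34, 1.05 ± 0.09 and 0.91 ± 0.22 (SD, n = 3), and the exact permutation test gave p = 0.0143 (adjusted over 13 families 0.0619). The order of these 2 genes depends on length, because annotated Camk2d exons total 22493 bases and its longest transcript has 5524. Per kilobase of the longest transcript, Camk2d took 30.8% ± 3.7 at 30 days and 48.5% at 90 days on average, and Camk2g was the highest in 7 of 9 libraries.

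**Figure D3:**
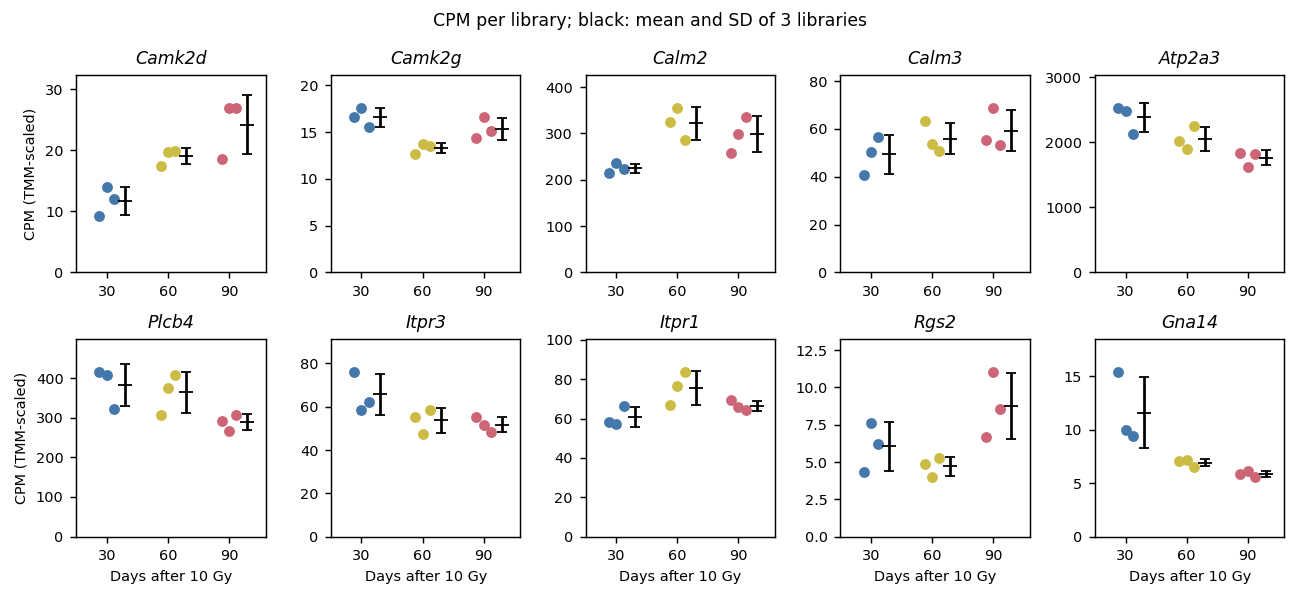
CPM in each library at 30, 60 and 90 days after irradiation for Camk2d, Camk2g, Calm2, Calm3, Atp2a3, Plcb4, Itpr3, Itpr1, Rgs2 and Gna14, with the mean and SD of each group of 3. Camk2d runs from 9.28 to 13.9 at 30 days and from 17.5 to 26.99 later, Calm2 from 216 to 236 and then from 259 to 356, and Calm3 and Itpr1 overlap between 30 and 90 days.

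The remaining calcium-driven members did not pass the test. Prkca, a conventional protein kinase C, took 72.2% to 82.1% of its family and had 16.2, 13.3 and 13.8 CPM at 30 days, 19.6, 19.6 and 17.5 at 60 days, and 17.2, 17.6 and 20.8 at 90 days. All later libraries were above all 30-day libraries (0.39 ± 0.13 at 60 days, edgeR adjusted p = 0.188, and 0.36 ± 0.13 at 90 days, adjusted p = 0.148).

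Ppp3ca, a catalytic subunit gene of calcineurin, had 63.8, 52.6 and 50.8 CPM at 30 days, 50.2, 53.4 and 48.7 at 60 days, and 49.2, 46.7 and 50.2 at 90 days. Its 90-day libraries were all below those of 30 days (-0.19 ± 0.10, edgeR adjusted p = 0.368). Its share of the catalytic subunits was 45.8% ± 0.9 (SD, n = 3) at 30 days, 41.1% ± 1.1 at 60 days and 40.4% ± 0.029 at 90 days, beside 40.5% ± 0.51, 41.1% ± 0.97 and 40.8% ± 3.0 for Ppp3cb. Ppp3ca was the higher in 5 of 9 libraries. The log2 ratio of Ppp3ca to the sum of the other catalytic genes was -0.24 ± 0.05, -0.52 ± 0.06 and -0.56 ± 0.00 at the 3 times. The exact permutation test of this ratio gave p = 0.0143 (adjusted over 13 families 0.0619). Per kilobase of the longest transcript Ppp3cb was the highest in 6 of 9 libraries. Ppp3r1, the regulatory subunit, ranged from 40.4 to 58.9 CPM. In its longest protein-coding transcript 14.7% of 50-base windows also occur in Wdr92.

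Nfatc1, a transcription factor that calcineurin activates, ranged from 7.63 to 12.04 CPM and was not the leading NFAT. Nfatc3, which is not among the 36, took 53.2% to 61.3% of the calcineurin-regulated NFAT genes and Nfatc1 22.5% to 30.4%. Nfatc3 had 36.05, 35.6 and 33.2 CPM at 30 days, 32.1, 33.9 and 37.4 at 60 days, and 31.1, 36.7 and 33.1 at 90 days, and the groups overlapped. Per kilobase of all exon, 4 of the 12 families reported had a ratio of the leading gene to its relatives with an exact permutation p under 0.05. After adjustment over the 13 tested, 0 did. The smallest p this design can give is 0.00357.

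**Figure D4:**
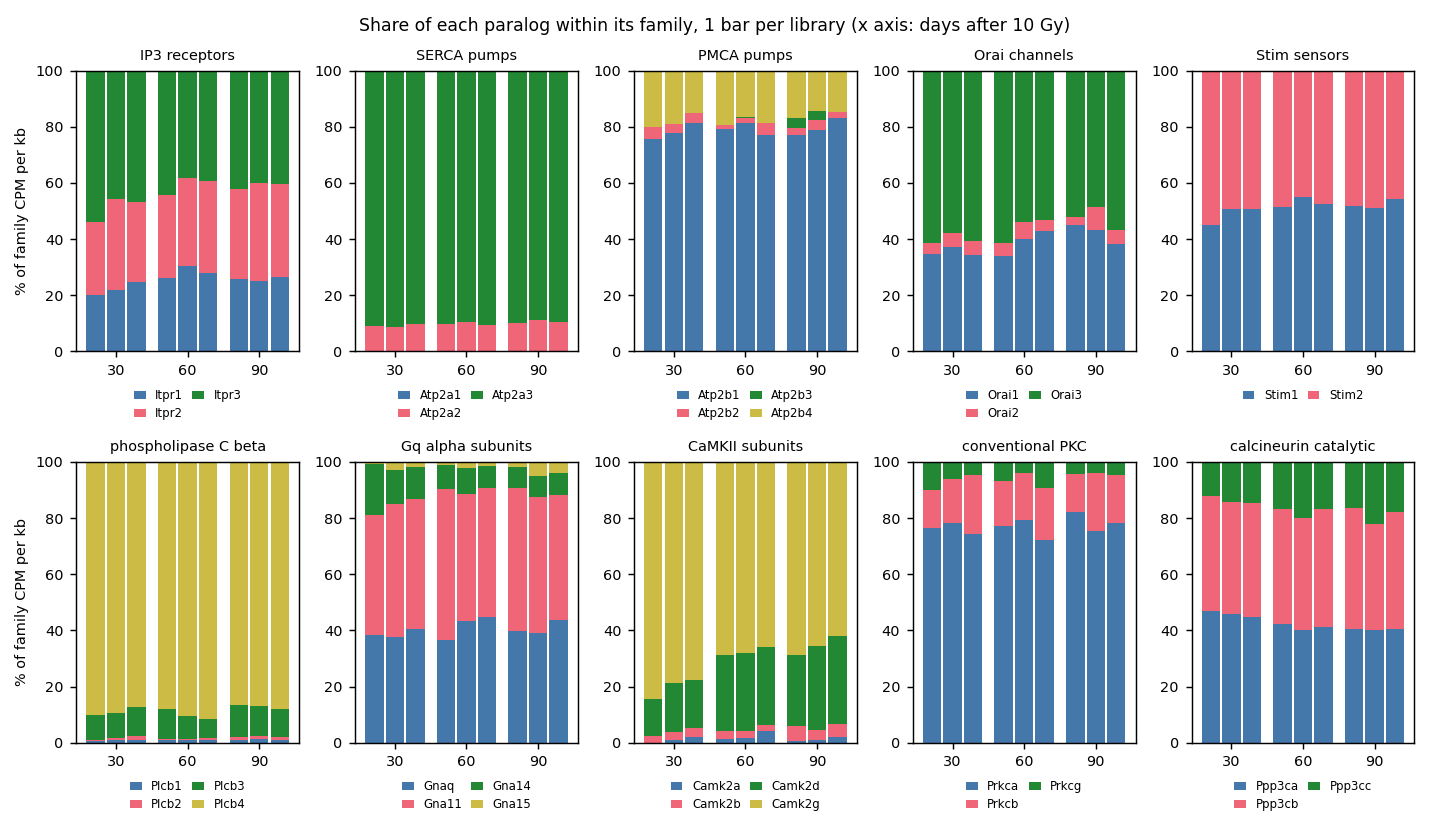
Share of each gene in the summed level of its family, in percent of CPM per kb of exon, for 10 families with 1 stacked bar per library in order of days. Atp2a3, Plcb4, Atp2b1 and Prkca hold most of their families in all 9 libraries, and the Camk2d share goes from 13.4% to 17.6% at 30 days to 25.4% to 31.3% later.

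Groups of 3 that do not overlap were counted for all members tested. Between 30 and 90 days, 5 of 35 members were higher without overlap (Trpv4, Calm2, Sri, Camk2d and Prkca), where 11.4% of all genes were. In the same comparison 9 were lower (Plcb3, Plcb4, Itpr3, Ahcyl1, Orai3, Atp2a2, Atp2a3, Atp2c2 and Ppp3ca), where 11.8% of all genes were. Both directions together gave 14 of 35 members and 23.2% of all genes. Between 30 and 60 days 7 members were higher and 3 lower, beside 8.65% and 8.22% (16.9% in all). Between 60 and 90 days 4 were higher and 4 lower, beside 8.3% and 7.64% (15.9% in all). None of the 9 that were lower at 90 than at 30 days was called by edgeR.

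Another 125 genes of calcium signalling were listed beside the 36, and 100 passed the filter. At 90 against 30 days, 3 were called higher and 5 lower, beside 1.81% and 1.77% of all genes tested. From 30 to 60 days 1 was called higher and 1 lower, beside 1.14% and 0.427%, and from 60 to 90 days 0 higher and 2 lower, beside 0.092% and 0.164%. In the test of any difference 8 were called, beside 3.29%. Rcn1, a calcium-binding protein of the endoplasmic reticulum, had means of 142 ± 15.1, 102 ± 13.0 and 87.1 ± 1.08 CPM at the 3 times (SD, n = 3). It fell by 0.70 ± 0.11 on the log2 scale from 30 to 90 days (edgeR adjusted p = 0.0014). Camkk1, a kinase that calmodulin activates, stood at 38.1 ± 6.97, 34.9 ± 4.61 and 20.1 ± 2.64 CPM, and it fell from 60 to 90 days by 0.80 ± 0.14 on the log2 scale (adjusted p = 0.0181). Over the whole interval Camkk1 fell by 0.92 ± 0.14 (adjusted p = 0.00132).

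Itpkb, which phosphorylates IP3, was lowest at 90 days: 101 ± 1.62, 119.7 ± 6.88 and 80.8 ± 0.532 CPM, with -0.57 ± 0.09 from 60 to 90 days (edgeR adjusted p = 0.0086). Camk2n1 encodes an inhibitor of CaMKII and rose by 0.50 ± 0.11 on the log2 scale from 30 to 90 days (adjusted p = 0.0122), as Camk2d did. Itprid1, named for an IP3 receptor interacting domain, rose by 0.39 ± 0.10 (adjusted p = 0.0299). Homer2, a scaffold protein, fell by 0.57 ± 0.12 (adjusted p = 0.0135), and Trpv6, a calcium-selective entry channel, fell by 0.70 ± 0.16 (adjusted p = 0.0187). The eighth was Gna14. Several of these calls were lost in fits that left out 1 library. Slc8a2, a sodium-calcium exchanger named after its values were seen, had 2, 0 and 2 counts at 30 days, 11, 9 and 14 at 60 days, and 24, 32 and 10 at 90 days (adjusted p = 0.0226 from 30 to 90 days). It lay near the limit of detection at 30 days, and no fold is given.

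Leaving out 30-day replicate 1 ended the 90-day calls of Camk2n1 (adjusted p = 0.091), Itprid1 (0.162), Homer2 (0.0931), Trpv6 (0.112) and Slc8a2 (0.0742) in edgeR. Without 90-day replicate 2 the same 5 calls were also lost (0.0534, 0.121, 0.091, 0.0876 and 0.131 in that order). Without 90-day replicate 3 those of Camk2n1 (0.072), Itprid1 (0.0998), Homer2 (0.0813) and Trpv6 (0.104) were lost. Itprid1 was also lost without 30-day replicate 2 (0.126), 60-day replicate 2 (0.055) or 90-day replicate 1 (0.0686), Trpv6 without 30-day replicate 2 (0.0607), and Slc8a2 without 30-day replicate 2 (0.108) or 3 (0.0563). Between 60 and 90 days Itpkb was lost without 60-day replicate 2 (0.0853) or 90-day replicate 2 (0.0552). Camkk1 was lost there without 60-day replicate 1 (0.0702) or 2 (0.0928), or 90-day replicate 2 (0.127) or 3 (0.0893), but its call from 30 to 90 days held in every alternative run. The 90-day call of Rcn1 was lost only with library-size scaling (-0.47, 0.101), a setting that also ended those of Homer2 (0.267) and Trpv6 (0.213) and the 60-to-90-day calls of Itpkb (-0.39, 0.358) and Camkk1 (-0.61, 0.226). The 90-day call of Itprid1 was also lost with library totals that leave out the 10 most abundant genes (0.0693).

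Markers of the gland's cell types moved between the groups in the same libraries. The summed level of 11 acinar markers was 13694 to 16546 CPM at 30 days, 14770 to 19036 at 60 days and 8678 to 12345 at 90 days. Of the 10 acinar markers tested, 7 lay below 0 and 3 above 0 from 30 to 90 days, with log2 fold changes from -0.60 to 3.15. In that comparison 3 were called lower, the water channel gene Aqp5, the chloride channel gene Ano1 and Lpo, and 0 higher. Of all genes tested, 1.77% were called lower and 1.81% higher there. The summed level of 12 granular and striated duct markers was 19067 to 24849 CPM at 30 days, 32101 to 37915 at 60 days and 27517 to 35614 at 90 days. Of these genes 6 were called higher at both later times, Egf among them. The share of all genes tested called higher was 1.14% at 60 days and 1.81% at 90 days. Immune markers summed to 305 to 521, 381 to 446 and 440.4 to 769 CPM at the 3 times, and basal and myoepithelial markers to 303 to 423, 450.1 to 479.9 and 418 to 591 CPM. All 6 basal and myoepithelial markers tested lay above 0 from 30 to 90 days, and 1 was called higher, beside 1.81% of all genes tested. Endothelial markers summed to 64.7 to 74.1, 59.6 to 62.2 and 70.4 to 86.0 CPM. All 6 lay below 0 from 30 to 60 days and all 6 above 0 from 60 to 90 days. In the later comparison 1, Sox18, was called higher, beside 0.092% of all genes tested. Fibroblast markers summed to 144 to 251 CPM and nerve and Schwann markers to 97.5 to 128 CPM over all libraries. Markers of the neighbouring sublingual gland summed to 249 to 430.5 CPM over all libraries, with Gal3st2 at 0 in every one. Of the 4 sublingual markers tested, 3 lay below 0 and 1 above 0 from 30 to 90 days. There 1 was called lower, beside 1.77% of all genes tested. Skeletal muscle markers summed to 1.81 to 3.25 CPM over all libraries, with Myh4 at 0 in every one. The part of these shifts in the values of Camk2d, Calm2, Atp2a3, Rgs2 and the other members was not tested. The libraries held 16541396 to 26065856 counts, of which the secreted-protein gene Mucl2 took 31.4% to 42.8% and the 10 most abundant genes 51.3% to 66.5%.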

How the data were processed

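Whole-number read counts per Ensembl gene were deposited by the authors for 9 libraries, made per the labels' protocols with a SMARTER mRNA-seq kit. Per the submitters' processing notes, fastp, STAR, featureCounts and mm10 were used, with versions, annotation and strand setting not given in the sources used here. Reads shared by near-identical or overlapping genes may therefore be split. A further 3 count columns match no listed sample and were not used. Samples were grouped by day in their titles. Symbols were found for 54409 of 54532 genes, and positions and lengths came from GENCODE mouse release 21 (GRCm38).

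Genes with few counts were removed with filterByExpr (minimum count 10), leaving 15224, and libraries were scaled by TMM. edgeR 4.0.16 (quasi-likelihood test, robust, common biological coefficient of variation 0.150) was fitted to all 9 libraries in R 4.3.3, with Benjamini-Hochberg adjustment over all 15224 genes and a threshold of 0.05. DESeq2 1.42.0, limma 3.58.1 (voom), other scalings and filters, a replicate block and fits without each library were alternatives. The fit was tested on simulated data.

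Within 13 gene families, the log2 ratio of the leading gene to the sum of its relatives (CPM per kb of union exon, pseudocount 0.01) was tested for any difference among the 3 times over all 280 partitions. The result of 1 family is not reported here. Named genes are members called by edgeR, the leading gene of each family, and up to 10 other calcium signalling genes with the smallest adjusted p for any difference. Members and lists were chosen with earlier results of these data known. Floors of 3 counts cover counting error only, as the labels name no molecular identifiers. Depth was 16541396 to 17179500 counts per library at 30 days and 20410818 to 26065856 at the later times, with no overlap. Comparisons with 30 days therefore also set shallower against deeper libraries.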

Additional observations from a re-analysis of the deposited data

How the results depend on the processing

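Of 3110 values for single genes under alternatives, 2968 kept their side of the threshold, 108 lost a call and 34 gained one. No called value changed sign. The 2968 include 103 uncalled values that changed sign, 33 of these with library-size scaling. The test of any difference has no direction. The number of members called from 30 to 60 days (2) was 0 with library-size scaling and with library totals without the 10 most abundant genes, 1 with limma-voom, and 0 to 2 with 1 library left out. From 60 to 90 days (0) it was 1 with DESeq2 and 1 with no filter on low counts, both for Rgs2, and 0 to 0 with 1 library left out. From 30 to 90 days (1) it was 2 with library-size scaling, 2 without the 10 most abundant genes, 4 with DESeq2, 2 with limma-voom, 4 with no filter, 2 with only the 6 libraries compared, and 1 to 2 with 1 library left out. For any difference (2) it was 1 without the 10 most abundant genes, 4 with DESeq2, 5 with no filter, and 1 to 3 with 1 library left out. These member counts are given without the share of all genes called in each setting. They therefore do not show whether a setting called more genes in general. The number of family ratios past the test (0) was 1 per kilobase of the longest transcript, 2 without length, and 0 to 5 with 1 library left out, 5 being without 30-day replicate 3. Same-numbered libraries correlated at -0.060 to 0.191, and differently numbered ones at -0.210 to 0.189. The labels do not say whether equal numbers mark matched animals, and with 3 libraries a group these values cannot decide it. With a replicate block the counts were 2, 0, 1, 2 and 0 in the same order, and Camk2d had an edgeR adjusted p of 0.000151 from 30 to 90 days. The last of these counts, for family ratios, decides nothing. The blocked permutation has 36 partitions, too few for 1 family alone to pass after adjustment over 13. Counts were lowest for Trpc1, which was not tested, and low for Slc8a1, Atp2c2 and Atp2b2, which had the widest standard errors from 30 to 90 days. Atp2c2 had 6 to 52 counts at 60 days, and the cause of that spread was not tested.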
